A study of Mus musculus with 24 samples.

Results

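Menin and the MLL methyltransferases act in complexes whose own genes carried called MLL1 and menin regions in NUP98-rearranged mouse leukaemia cells. The genes described here are Kmt2a, Kmt2b, Kmt2c, Kmt2d, Men1, Psip1, Ash2l, Wdr5, Rbbp5 and Dpy30, which are 10 of 21631 protein-coding genes (chromosome X and autosomes 1 to 19) that RefSeq lists for GRCm38.p6, the mm10 build. They were chosen as genes of the complexes, with earlier results of these data known. For each gene, the called regions and the bases they cover were counted over the annotated span plus 2 kb on either side. The number of these bases is called the covered length. It is the length of chromatin that passed the authors' peak threshold and not a level of binding.

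Chromatin immunoprecipitation sequencing (ChIP-seq) was done on mouse leukaemia cells with 4 NUP98 fusions, and 14 of the 24 libraries have a peak list. NUP98-HOXA9 cells have lists for MLL1, menin and H3K4me3, which is histone H3 trimethylated at lysine 4. NUP98-HOXD13 cells have lists for MLL1 and menin, and NUP98-JARID1A and NUP98-NSD1 cells for MLL1 alone. Each line and antibody has 1 DMSO library and 1 library of cells given VTP50469, a small molecule that blocks the contact between menin and MLL1, which makes 7 pairs. The question was how loss of this contact changes the chromatin sites of these proteins. VTP50469 was given at 2 µM, except to NUP98-NSD1 cells, whose label gives 200 nM although the treatment protocol names 2 µM. Treatment lasted 96 h, or 72 h for MLL1 in NUP98-HOXA9 cells. All cells were grown in medium with interleukin 3, interleukin 6 and stem cell factor. How each fusion was introduced, and whether a line is a single clone, is not given in the sources used here. In the H3K4me3 DMSO list of NUP98-HOXA9, 5 of 5 blood cell genes (Ptprc, Spi1, Cebpa, Mpo and Kit) had a region, and 0 of 5 genes of other tissues (Alb, Ins2, Myh6, Neurod1 and Krt5) had one.

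The KMT2 proteins are methyltransferases that place methyl groups on lysine 4 of histone H3, a mark of promoters and enhancers. MLL1 and MLL2, encoded by Kmt2a and Kmt2b, bind menin at their amino terminus, and LEDGF, encoded by Psip1, joins this assembly and tethers it to chromatin. MLL3 and MLL4, encoded by Kmt2c and Kmt2d, act mainly at enhancers and do not use menin. WDR5, RBBP5, ASH2L and DPY30 form the core that all KMT2 enzymes need for full activity. In acute myeloid leukaemia with MLL or NUP98 fusions, menin and MLL1 hold HOX and MEIS1 genes active, which is the reason for testing menin inhibitors there.

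The lists set the scale for every value below. MLL1 lists held 22534 and 21739 regions (DMSO and VTP50469) in NUP98-HOXA9, 20154 and 14744 in NUP98-HOXD13, 15765 and 24950 in NUP98-JARID1A, and 7113 and 1036 in NUP98-NSD1. For menin the NUP98-HOXA9 lists had 9050 and 403 regions and those of NUP98-HOXD13 18826 and 16706, and for H3K4me3 the numbers were 9443 and 9567. The number of called regions moves with each pair's result at the genes below. Beyond a setting with lists of equal length, its part in these results was not tested. Read depth is unknown from the lists, and each condition had 1 library, so no value here has a replicate error and no p-value was computed. A gene's own values are read against the share of all covered genes that met the same rule.

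Promoter sequence is shown first, since MLL1 regions lay over or beside the listed start of all 7 members that have an entry in the RefSeq promoter table. Men1 has 3 starts there and Dpy30 has 4. The start used was the one nearest an MLL1 summit, so nearness to MLL1 is partly set by that choice. These 5 stretches, from the 2 promoters richest in CG, the 2 poorest and 1 between, are the 250 bases upstream of the start in GRCm38.p6. They run from the most to the least CG-rich and are written in lower case with every CG dinucleotide in capitals.
Kmt2c promoter (chr5:25498784-25499033, minus strand): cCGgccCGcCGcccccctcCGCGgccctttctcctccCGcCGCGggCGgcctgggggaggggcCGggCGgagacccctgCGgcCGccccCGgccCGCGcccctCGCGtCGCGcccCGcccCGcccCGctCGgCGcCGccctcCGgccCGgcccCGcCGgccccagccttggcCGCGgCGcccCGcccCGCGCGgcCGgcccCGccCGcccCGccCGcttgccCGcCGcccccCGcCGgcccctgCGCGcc
Kmt2a promoter (chr9:44881290-44881539, minus strand): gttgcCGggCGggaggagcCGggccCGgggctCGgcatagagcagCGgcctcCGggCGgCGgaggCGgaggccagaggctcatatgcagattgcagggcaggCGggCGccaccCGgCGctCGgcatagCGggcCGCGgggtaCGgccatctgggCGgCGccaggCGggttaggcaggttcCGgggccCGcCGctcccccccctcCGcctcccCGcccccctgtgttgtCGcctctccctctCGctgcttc
Dpy30 promoter (chr17:74316434-74316683, minus strand): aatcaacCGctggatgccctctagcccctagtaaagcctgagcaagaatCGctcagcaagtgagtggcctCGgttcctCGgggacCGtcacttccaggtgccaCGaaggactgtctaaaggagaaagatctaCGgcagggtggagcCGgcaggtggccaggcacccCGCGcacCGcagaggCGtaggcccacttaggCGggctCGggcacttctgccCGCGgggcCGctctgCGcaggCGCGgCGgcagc
Rbbp5 promoter (chr1:132477117-132477366, plus strand): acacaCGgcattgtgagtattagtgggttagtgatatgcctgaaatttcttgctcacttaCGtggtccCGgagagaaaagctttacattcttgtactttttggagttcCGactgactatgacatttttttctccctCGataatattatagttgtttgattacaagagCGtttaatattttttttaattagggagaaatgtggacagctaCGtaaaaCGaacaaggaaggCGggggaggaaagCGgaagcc
Men1 promoter (chr19:6334729-6334978, plus strand): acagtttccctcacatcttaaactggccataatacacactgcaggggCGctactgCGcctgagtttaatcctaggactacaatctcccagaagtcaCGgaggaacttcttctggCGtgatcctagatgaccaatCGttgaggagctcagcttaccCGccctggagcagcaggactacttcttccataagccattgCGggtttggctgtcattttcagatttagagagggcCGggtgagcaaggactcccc
The Kmt2c stretch has 48 CG dinucleotides and that of Kmt2a has 29, while Dpy30 has 21, Rbbp5 10 and Men1 8. CG-dense promoters are the usual binding ground of MLL1 and MLL2, which carry a domain that reads unmethylated CG. Over the table's full window of 300 bases, Kmt2c had 56 CG, more than 99.8% of the 21045 promoters of protein-coding genes, and Kmt2a had 36, more than 91.8% of them. Dpy30, with 30 CG, Kmt2d, with 27, and Wdr5, with 22, lay above 84.4%, 79.1% and 68.4% of promoters. Rbbp5, with 16 CG, and Men1, with 11, lay near the median of all promoters, which was 13 (quartiles 4 and 25). The hexamer GGGCGG, searched on both strands as the core of a GC box, was found 12 times at Kmt2c, 5 times at Kmt2a, 4 times at Kmt2d, 2 times at Wdr5, once at Men1 and not at Rbbp5 or Dpy30. It occurs in 46.7% of all promoter windows. The ETS-type heptamer CCGGAAG, searched on both strands, was found in none of the 7 windows and in 11.7% of all.

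In DMSO every one of the 10 genes had an MLL1 region in NUP98-HOXA9, NUP98-HOXD13 and NUP98-JARID1A cells, where 53%, 53.5% and 48.4% of all protein-coding genes had one. In NUP98-NSD1 cells 5 of 10 had one (Kmt2a, Kmt2c, Psip1, Ash2l and Dpy30), against 26.1% of all genes. Menin regions lay at all 10 in NUP98-HOXD13 (53.4% of all genes) and at 8 in NUP98-HOXA9 (34.6%), where Psip1 and Rbbp5 had none. H3K4me3 lay at 9 of 10 (42.4%), all but Ash2l. The members are longer than most genes, with a median span of 29.6 kb against 17.3 kb, and a longer window can hold more regions. The NUP98-NSD1 list is the shortest of the MLL1 DMSO lists, and the part of list length in its count was not tested. With each MLL1 DMSO list limited to its 7113 regions of highest −log10 q, 4 members had a region in NUP98-HOXA9, 4 in NUP98-HOXD13 and 5 in NUP98-JARID1A. The shares of all genes in these shortened lists are not given here, so the counts stand without a background.

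The 10 genes held 149 regions over the 14 lists, which fall into 18 sites when overlapping regions are joined. Of these sites 10 were called in 9 or more lists, and 6 in 1 or 2 lists. Kmt2a was covered in 13 of the 14 lists, missing only in menin of NUP98-HOXA9 after VTP50469, and was the only member covered in all 8 MLL1 lists, as 3.72% of all genes were. Kmt2c, Kmt2d and Dpy30 were covered in 12 lists, Kmt2b, Men1, Psip1, Ash2l and Wdr5 in 11 and Rbbp5 in 9. Of the 149 regions, 35 lay within 1 kb of an annotated end of another gene, so that they cannot be assigned to the member alone.

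**Figure D1:**
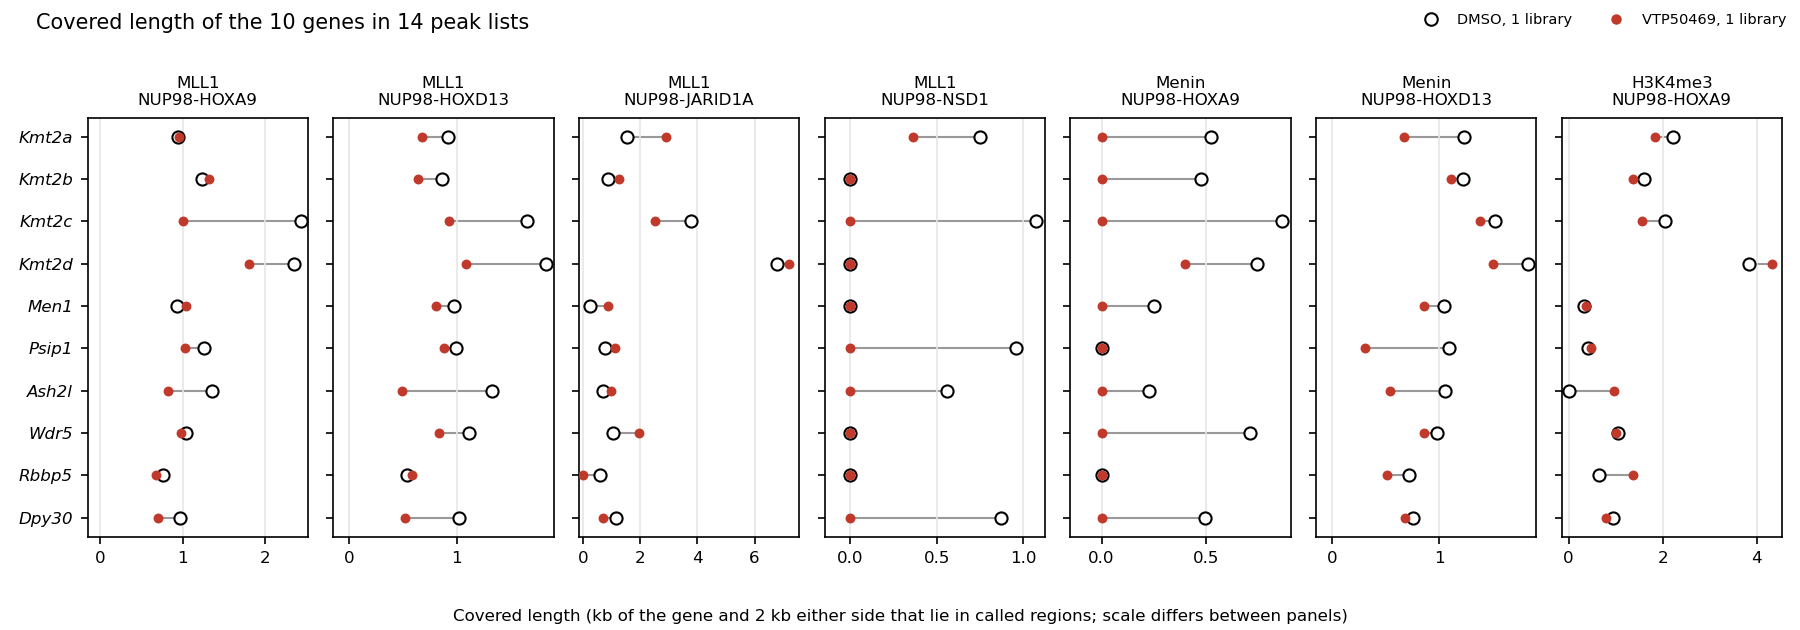
Covered length (kb of the gene and 2 kb either side that lie in called regions) of the 10 genes, with 1 panel per antibody and cell line, an open circle for the DMSO library and a red point for the VTP50469 library. Red points sit at 0 for 7 of the 8 genes with menin in NUP98-HOXA9 and for 4 of the 5 with MLL1 in NUP98-NSD1, and to the right of the circles for 7 of 10 genes in NUP98-JARID1A.

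Kmt2a, which encodes MLL1, the protein whose binding was mapped, carried a strong region over its own promoter. The site (chr9:44879705-44882610) spans the annotated 5′ end of the gene, whose span is chr9:44803355-44881352. In DMSO its MLL1 regions covered 943 bp in NUP98-HOXA9, 921 bp in NUP98-HOXD13, 1546 bp in NUP98-JARID1A and 749 bp in NUP98-NSD1. After VTP50469 the lengths were 958, 680, 2885 and 364 bp. MLL1 therefore stayed called at the Kmt2a promoter in every line, although the treated NUP98-NSD1 region has a −log10 q of 4.19 and is gone when 5 is asked for. The covered length was at 102% of DMSO in NUP98-HOXA9, at 73.8% in NUP98-HOXD13, at 187% in NUP98-JARID1A and at 48.6% in NUP98-NSD1. Over the gene span alone, which leaves out the upstream part of the site, the lengths were 225 and 453 bp in NUP98-HOXA9 and 464 and 225 bp in NUP98-HOXD13. The authors' fold enrichment, used only to rank regions inside a list, placed the Kmt2a region in the top 6.55%, 4.68% and 2.86% of the first 3 DMSO lists but at 66.1% in NUP98-NSD1.

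Menin at Kmt2a covered 527 bp in NUP98-HOXA9 in DMSO and had no region after VTP50469. In NUP98-HOXD13 it covered 1226 and 668 bp. H3K4me3 in NUP98-HOXA9 covered 2230 bp in DMSO, as a region in the top 0.0529% of its list by fold, and 1828 bp as 2 regions after VTP50469. In NUP98-HOXA9 the menin region was thus lost while MLL1 and H3K4me3 stayed called at the same promoter, with MLL1 taken at 72 h and the other marks at 96 h. Among all covered genes in these pairs, 96.2% lost menin, 97.3% kept MLL1 and 95.7% kept H3K4me3, so Kmt2a went with most genes. The MLL1 and menin summits at the site lay within 255 bp of each other over all lists.

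Kmt2c, the gene of MLL3, held the longest MLL1 cover of the 10 in NUP98-HOXA9 in DMSO and lost the part of it that lies inside the gene. Its covered length was 2430 bp in DMSO and 1008 bp after VTP50469 (41.5%), the only member with at most 50% left there, where 12.8% of all covered genes were that short. The 3 DMSO regions were an upstream one of 1001 bp with its summit at −891 bp from the start, one of 1132 bp with its summit at 669 bp, and one of 297 bp with its summit at 22719 bp, inside the gene. The upstream region was kept at 1008 bp, with its summit at −903 bp, and the other 2 regions were no longer called. In the DMSO list the upstream region ranked at 13.4% by fold. The other 2 were weaker calls, ranked at 74% and 77.5%.

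In NUP98-HOXD13 the upstream part of the Kmt2c cover likewise stayed called and the downstream part did not, while the other lines differed. The NUP98-HOXD13 bases within 2 kb upstream of the start were 1420 in DMSO and 925 after VTP50469, and those downstream 232 and 0. In NUP98-JARID1A they were 1323 and 1251 upstream and 1995 and 1248 downstream, so that both parts stayed called. In NUP98-NSD1 both parts, 465 and 607 bp, were lost. Menin covered 864 bp in NUP98-HOXA9, all upstream, and had no region after VTP50469. In NUP98-HOXD13 it covered 1515 and 1377 bp. H3K4me3 covered 2058 and 1554 bp, of which the upstream bases went from 996 to 351 and the downstream bases from 1062 to 1203.

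Over the 7 members with a start in the promoter table, MLL1 in NUP98-HOXA9 kept 88.3% of its upstream bases (4349 and 3838 bp) and 54.7% of its downstream bases (2840 and 1554 bp). The same shares over all 8304 genes that had an MLL1 summit within 2 kb of a listed start in that DMSO list were 89.9% and 70.9%. These genes were chosen on the DMSO list, so their values are a description. Most of the net downstream bases missing at the members were those of Kmt2c. At Kmt2d and Dpy30 the start used lies more than 2 kb inside the annotated span, so the bases counted upstream of it are within the span. In NUP98-HOXD13 the members kept 68.5% upstream and 60.8% downstream, and all genes 72.7% and 54%. In NUP98-JARID1A the treated length was 112% of DMSO upstream and 88.1% downstream at the members, and 127% and 111% over all genes. In NUP98-HOXA9 the order of the members' shares rests on Kmt2c, since without it they kept 84.5% upstream and 91% downstream, and in NUP98-HOXD13 they then kept 70% and 69.4%. For H3K4me3 the members had 79.3% upstream and 101% downstream, and all genes 110% and 107%.

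**Figure D2:**
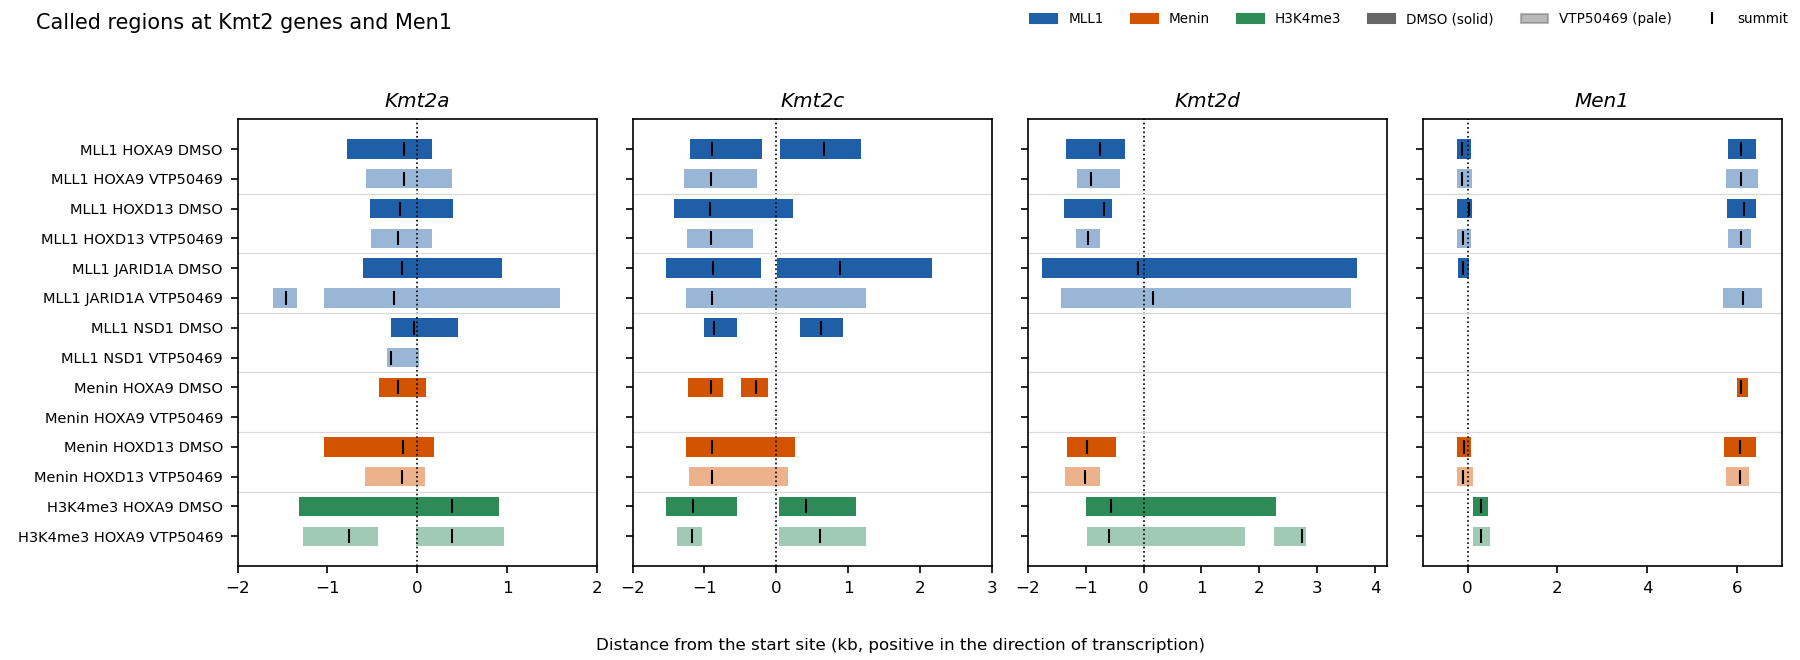
Called regions around the start of Kmt2a, Kmt2c, Kmt2d and Men1, in kb from the start with positive values in the direction of transcription; bars are regions of MLL1 (blue), menin (orange) and H3K4me3 (green), solid for DMSO and pale for VTP50469, and ticks are summits. At Kmt2c the MLL1 region downstream of the start in NUP98-HOXA9 DMSO has no pale partner, and at Men1 the NUP98-JARID1A region moves from the start to the far end.

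Kmt2d, the gene of MLL4, had the longest cover in NUP98-JARID1A, with 6792 bp in DMSO and 7201 bp after VTP50469. A single region of 5442 bp lay over its listed start in DMSO and one of 5005 bp after VTP50469, whereas the start regions in the DMSO lists of NUP98-HOXA9 and NUP98-HOXD13 were 1026 and 833 bp long. The listed start, at 98871205 on the minus strand, lies inside the annotated span (chr15:98831669-98874077). Kmt2d MLL1 length was 2355 and 1810 bp in NUP98-HOXA9 and 1832 and 1086 bp in NUP98-HOXD13, and no region was called in NUP98-NSD1. It was the only member with at most 50% left in none of the 7 pairs. With no DMSO region in NUP98-NSD1 it could not be counted there, and the share of all genes with this result is not given here.

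A further site, which cannot be assigned to Kmt2d alone, adds to these lengths. The site at its far end (chr15:98830375-98832362) lies over the start of Prkag1 (chr15:98812797-98831508), which encodes a regulatory subunit of the energy-sensing kinase AMPK. This site ranked in the top 0.923%, 0.705% and 1.24% of the MLL1 DMSO lists of NUP98-HOXA9, NUP98-HOXD13 and NUP98-JARID1A, while the start site of Kmt2d ranked at 59.4%, 52.2% and 2.31% in the same lists. It made up 1329 of the 2355 bp in NUP98-HOXA9 and 999 of the 1832 bp in NUP98-HOXD13, but 1350 of the 6792 bp in NUP98-JARID1A. The Prkag1 site also held the only menin region of any member left in NUP98-HOXA9 after VTP50469, with 744 bp in DMSO and 399 bp after treatment, and its region ranked in the top 1.62% of the menin DMSO list. Without regions near another gene's end, Kmt2d MLL1 length was 1026 and 730 bp in NUP98-HOXA9 and 833 and 411 bp in NUP98-HOXD13, which is 49.3% left, and menin in NUP98-HOXA9 had no region in either list. This setting was added after the data were seen. H3K4me3 at Kmt2d covered 3840 and 4323 bp, the longest of the 10 members.

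Kmt2b, the gene of MLL2 and the closest relative of Kmt2a, had 1 site (chr7:30587630-30589669) at the end of its span (chr7:30568855-30589056) that faces the gene Zbtb32. MLL1 covered 1241 and 1315 bp in NUP98-HOXA9, 862 and 643 bp in NUP98-HOXD13 and 868 and 1244 bp in NUP98-JARID1A. The treated length was the shorter in NUP98-HOXD13 and the longer in the other 2 lines. Over the gene span alone, without the flank, it was shorter in those lines too, with 839 and 717 bp in NUP98-JARID1A and a ratio of 0.912 in NUP98-HOXA9. Menin covered 479 bp in NUP98-HOXA9 and had no region after VTP50469, while in NUP98-HOXD13 it covered 1222 and 1113 bp. H3K4me3 covered 1595 and 1362 bp. The MLL1 and menin summits of the site lay within 172 bp.

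Men1, the gene of menin itself, had short regions of low rank. Over its start (chr19:6334738-6335095) the MLL1 regions in DMSO were 303 bp long in NUP98-HOXA9, 331 bp in NUP98-HOXD13 and 250 bp in NUP98-JARID1A, with ranks by fold of 67.3%, 59.5% and 93.4%. None was called in NUP98-NSD1. After VTP50469 they were 334 and 303 bp in the first 2 lines, and the region was not called in NUP98-JARID1A. A menin region of 316 bp lay over the start in NUP98-HOXD13 and was 352 bp after VTP50469. Menin thus lay at the start of its own gene in that line before and after the inhibitor.

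A second Men1 site (chr19:6340670-6341533) lies at the far end of the gene, next to the start of Map4k2, a kinase gene. It held the 252 bp menin region of Men1 in NUP98-HOXA9, which was lost after VTP50469. In NUP98-JARID1A it was not called in DMSO and 864 bp long after VTP50469. The covered length of Men1 there, 250 and 864 bp (346%), therefore compares 2 different sites. H3K4me3 at Men1 covered 333 and 377 bp, immediately downstream of the start.

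Psip1, the gene of LEDGF, had 1 site (chr4:83485570-83486899) at one end of its span (chr4:83455680-83486463). MLL1 covered 1265 and 1035 bp in NUP98-HOXA9, 992 and 878 bp in NUP98-HOXD13, 772 and 1108 bp in NUP98-JARID1A, and 958 and 0 bp in NUP98-NSD1. In NUP98-JARID1A the DMSO length was 2 regions, of 349 and 423 bp, and the treated length was 1. Menin in NUP98-HOXD13 covered 1090 and 305 bp, which is 28% left and the only member with at most 50% left in that pair, where 13.5% of covered genes were. MLL1 at the same site in that line kept 88.5%. No menin region was called at Psip1 in NUP98-HOXA9, and H3K4me3 covered 414 and 476 bp.

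Ash2l encodes a core subunit that binds DPY30. Its main site (chr8:25840185-25841668) lies inside the annotated span (chr8:25816000-25847694) and more than 1 kb from both of its ends, and the MLL1 and menin summits there lay within 97 bp of each other. MLL1 covered 1361 and 828 bp in NUP98-HOXA9, 1325 and 492 bp in NUP98-HOXD13, 711 and 972 bp in NUP98-JARID1A, and 556 and 0 bp in NUP98-NSD1. Ash2l had 37.1% left in NUP98-HOXD13 and was the only member with at most 50% there, against 30.4% of all covered genes. In NUP98-HOXA9 the treated length includes a new region of 333 bp at the end of Kcnu1. Without it 495 bp, or a ratio of 0.364, were left, so that the main site had at most 50% left in both lines.

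Menin at Ash2l covered 229 bp in NUP98-HOXA9, as a region ranked at 96.8% of its list by fold, and 0 bp after VTP50469. In NUP98-HOXD13 it covered 1056 and 543 bp. The DMSO length there includes a region of 278 bp at the end of Kcnu1. Without it the lengths were 778 and 543 bp, a ratio of 0.698. H3K4me3 was not called at Ash2l in DMSO, and 2 regions of 496 and 465 bp were called after VTP50469. As the only member with no H3K4me3 region in DMSO, Ash2l was the only one that could be called gained. Of all genes with no DMSO region, 5.63% gained one. The deposited −log10 q values of the 2 Ash2l regions were 12.8 and 5.18, where the weakest region of the list had 2.03.

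Wdr5 encodes the subunit that anchors KMT2 proteins to the core. Its main site (chr2:27514370-27516325) lies over the start at 27515147 on the plus strand. MLL1 covered 1045 and 987 bp in NUP98-HOXA9, 1116 and 833 bp in NUP98-HOXD13, 1040 and 1968 bp in NUP98-JARID1A, and none in NUP98-NSD1. The treated NUP98-JARID1A value includes 519 bp of a 700 bp region that reaches past the window, has its summit at −2122 bp from the start and was called in no other list. Over the gene span alone the lengths there were 654 and 672 bp. Menin covered 714 bp in NUP98-HOXA9 and had no region after VTP50469, while in NUP98-HOXD13 it covered 983 and 854 bp. H3K4me3 covered 1054 and 997 bp.

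Rbbp5 encodes a core subunit that, with ASH2L, activates the methyltransferase. It was the least covered of the 10 in the MLL1 DMSO lists of NUP98-HOXA9 and NUP98-HOXD13, with 766 and 536 bp, and its MLL1 regions in 3 DMSO lists ranked between 50.8% and 69% of the lists by fold. After VTP50469 these lengths were 673 and 581 bp. In NUP98-JARID1A its 585 bp region was lost, although most genes had longer cover there and 0.717% of covered genes lost theirs. The lost region ranked at 66.2% of its list. Rbbp5 was also the only member with an H3K4me3 length of at least 200% of DMSO (652 and 1375 bp, 211%), as 3.41% of covered genes had, and the treated length was 2 regions. Over the gene span alone it had 652 and 960 bp, which is under 200%. Menin covered 719 and 512 bp in NUP98-HOXD13 and was not called in NUP98-HOXA9.

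Dpy30 encodes the smallest core subunit. Its site (chr17:74315429-74316860) lies over one of the 4 starts in the promoter table, at 74316433 on the minus strand and inside the annotated span (chr17:74299474-74323944). MLL1 covered 973 and 702 bp in NUP98-HOXA9, 1023 and 516 bp in NUP98-HOXD13 (50.4% left), 1153 and 684 bp in NUP98-JARID1A and 869 and 0 bp in NUP98-NSD1. Dpy30, Kmt2c and Rbbp5 were the 3 members with shorter cover in NUP98-JARID1A, and Dpy30 and Kmt2c were shorter in all 4 lines. In NUP98-NSD1 its DMSO region ranked in the top 8.76%, the highest of any member in that list, and no region was called there after VTP50469. Menin covered 497 and 0 bp in NUP98-HOXA9 and 759 and 683 bp in NUP98-HOXD13, and H3K4me3 952 and 802 bp.

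**Figure D3:**
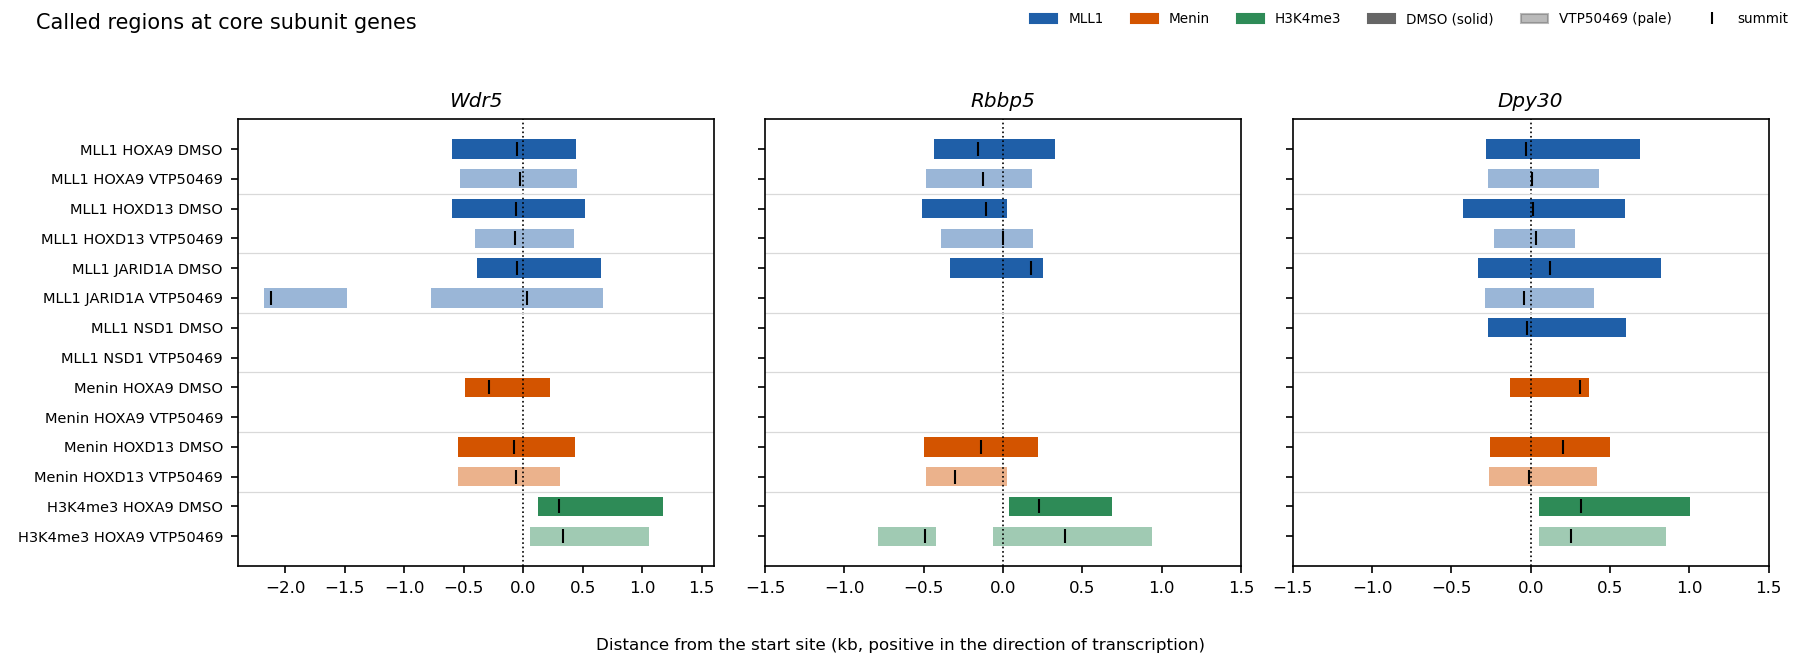
Called regions around the start of Wdr5, Rbbp5 and Dpy30, in kb from the start with positive values in the direction of transcription; bars are regions of MLL1 (blue), menin (orange) and H3K4me3 (green), solid for DMSO and pale for VTP50469, and ticks are summits. MLL1 and menin lie across the start of each gene, and H3K4me3 in DMSO begins downstream of it. The start shown for Dpy30 is the listed one nearest an MLL1 summit.

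Summed over the 10 genes, MLL1 cover after VTP50469 was shorter than in DMSO in 3 lines and longer in NUP98-JARID1A, as it was over all genes. In NUP98-HOXA9 it was 13318 and 10359 bp, or 77.8% left, against 76.6% over all genes. In NUP98-HOXD13 it was 11231 and 7442 bp, or 66.3% against 58.3%. In NUP98-JARID1A it was 17486 and 19425 bp, or 111% against 131%, and over the gene spans alone 13228 and 13105 bp. In NUP98-NSD1 it was 4204 and 364 bp, or 8.66% against 9.4%, at a dose of 200 nM that differs from the other lines.

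Cover was shorter at 7 and longer at 3 of the 10 in NUP98-HOXA9, where 63% of all covered genes were shorter and 36.8% longer. The shorter members were 9 of 10 in NUP98-HOXD13 (89.7% of all) and the longer 1, Rbbp5, stood among 10.2%. In NUP98-JARID1A 3 of 10 were shorter (27.4%) and 7 longer (72.4%). In NUP98-NSD1 all 5 members with a region had at most 50% left and 4 lost it, where 94.1% of covered genes had at most 50% left and 85.2% lost theirs. Kmt2a was the 1 member of 5 that kept a region, and 14.8% of all covered genes did. A single member each had at most 50% left in NUP98-HOXA9 (Kmt2c), NUP98-HOXD13 (Ash2l) and NUP98-JARID1A (Rbbp5, where the background was 2.51%). Men1 was the 1 member with at least 200% in NUP98-JARID1A, against 19.3% of covered genes.

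**Figure D4:**
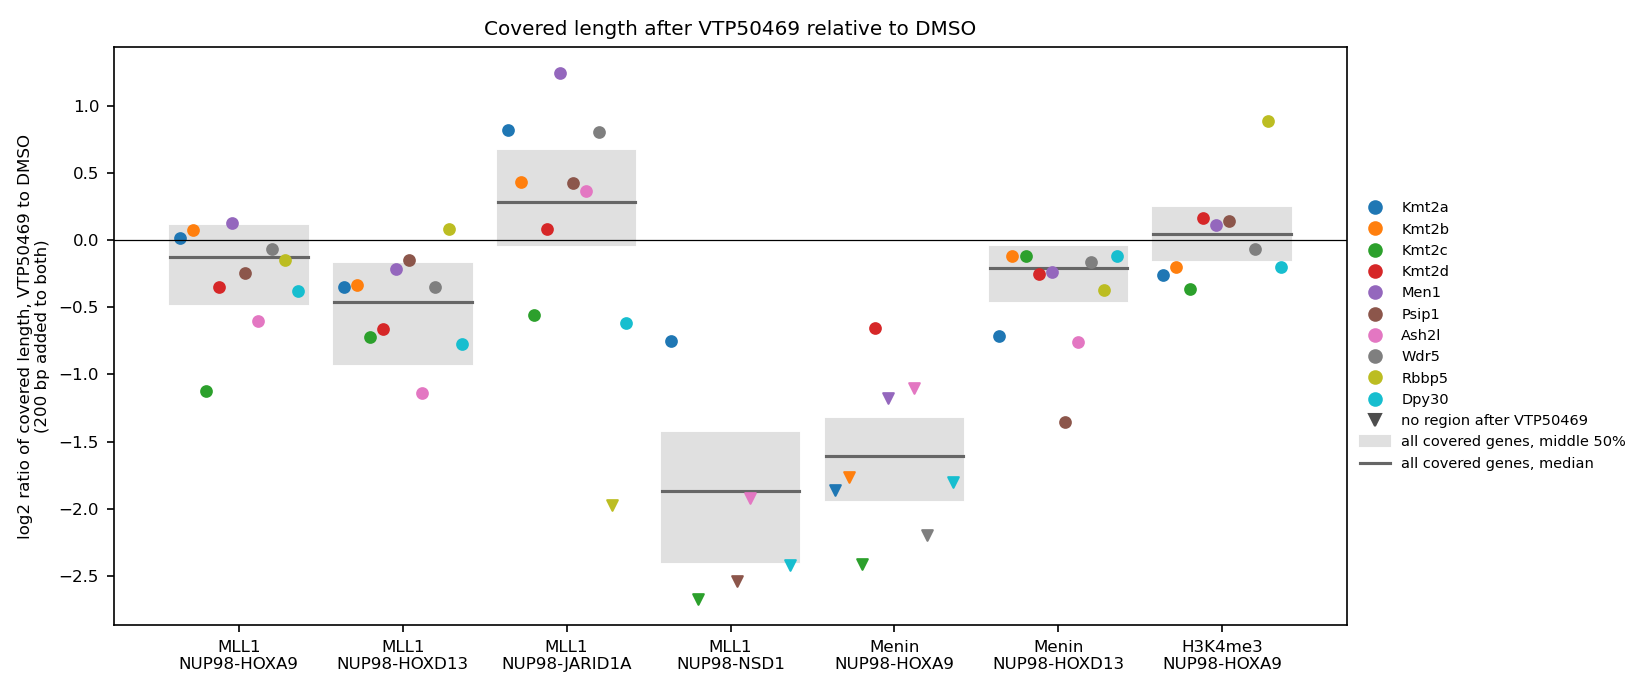
Log2 ratio of covered length, VTP50469 to DMSO with 200 bp added to both, for each gene with a DMSO region (coloured points; triangles mark genes with no region after VTP50469), in 7 antibody and line pairs; grey boxes give the middle 50% and lines the median of all genes with a DMSO region. Among the points outside the grey boxes, Kmt2c in NUP98-HOXA9, Rbbp5 in NUP98-JARID1A and Psip1 in NUP98-HOXD13 menin lie below, and Men1 in NUP98-JARID1A, Kmt2a in NUP98-NSD1, Kmt2d in NUP98-HOXA9 menin and Rbbp5 in H3K4me3 lie above.

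Menin cover over the members went with the menin list of each line. In NUP98-HOXA9 their menin length was 4306 bp before and 399 bp after the inhibitor, or 9.27%, against 2.57% over all genes. All 399 bp were at the Prkag1 start. Of 8 members with a menin region, 7 lost it and so had at most 50% left. Among all covered genes 98.7% had at most 50% left and 96.2% lost their regions. In NUP98-HOXD13, under the same dose and time, the 10 genes had 11446 and 8416 bp, or 73.5% against 79%, and no member lost its regions altogether, where 7.64% of covered genes did. All 10 members were shorter there, as were 82.6% of covered genes. The difference between the 2 lines was not tested, with 1 library each.

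Menin and MLL1 shared bases at the members to the following extent. In the NUP98-HOXD13 DMSO lists, 9688 bp were in both, which is 84.6% of the members' menin length and 86.3% of their MLL1 length. Over all genes the shares were 83.9% and 67%. After VTP50469, 6438 bp were in both, which is 76.5% and 86.5%, against 78.8% and 85.3% over all genes. In NUP98-HOXA9 DMSO, 4196 bp were in both, 97.4% of the menin length and 31.5% of the MLL1 length, against 97.7% and 24.7% over all genes, with the 2 libraries taken at different times. In both lines the titles of the menin and MLL1 libraries carry different dates, so antibody and date cannot be told apart.

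H3K4me3 covered 13128 and 14055 bp of the 10 genes in sum, or 107% of DMSO, against 108% over all genes. None of the 9 members with a DMSO region had at most 50% left, against 5.68% of covered genes. All 9 kept a region, as did 95.7% of covered genes. Of their 12 DMSO regions 12 overlapped a region after VTP50469, a count with no share of all regions beside it. Cover was shorter at 5 members and longer at 4, where 43.4% and 56.3% of covered genes were. Menin in the same line, dose and time had a region at 8 members in DMSO and at 1 after VTP50469, when 1.32% of all genes had one.

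H3K4me3 summits lay downstream of MLL1 summits at most members. In the DMSO lists of NUP98-HOXA9, the MLL1 summit nearest the start lay at −32 bp at Dpy30, −48 bp at Wdr5, −126 bp at Men1, −152 bp at Kmt2a and −160 bp at Rbbp5. The H3K4me3 summit lay 317, 301, 293, 385 and 228 bp downstream of the start at the same 5 genes. Where several starts are listed, as at Men1 and Dpy30, the one nearest an MLL1 summit was used. The MLL1 distance there is partly set by that choice. Over the 7 members the H3K4me3 summit was downstream of MLL1 at 6, with a median of 349 bp, and over all genes at 5697 of 6730 (84.7%), with a median of 339 bp. The exception was Kmt2c, where the nearest MLL1 summit is that of the downstream region lost after VTP50469.

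**Figure D5:**
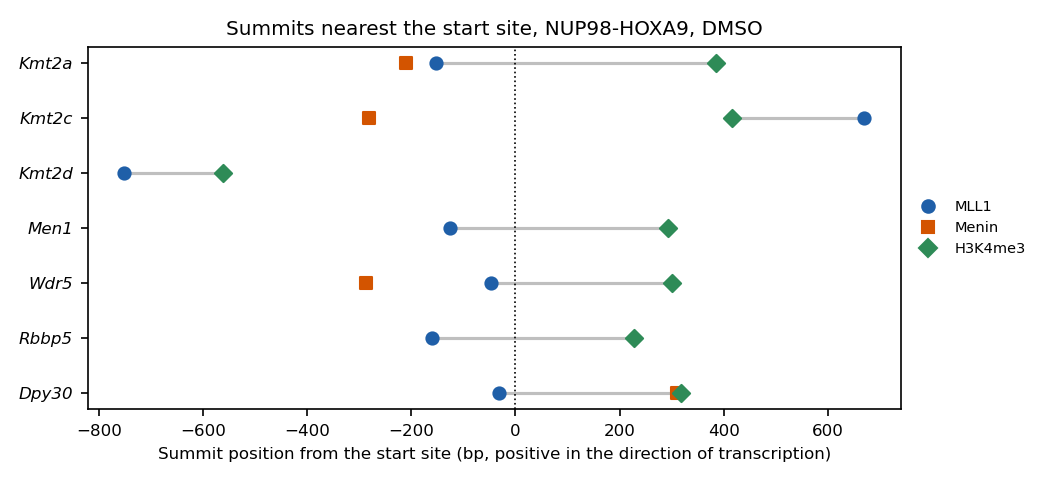
Position of the MLL1 (blue circle), menin (orange square) and H3K4me3 (green diamond) summit nearest the start of 7 genes in NUP98-HOXA9 DMSO, in bp from the start, positive in the direction of transcription. H3K4me3 lies to the right of MLL1 at 6 of the 7 genes, and to its left at Kmt2c. Where a gene has several listed starts, the one nearest an MLL1 summit is used.

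The same counts were made at 16 other genes of the same pathway, with the share of all covered genes in brackets. These 16 are SET1 methyltransferases and their partners, subunits of the MLL3 and MLL4 complexes, the protease gene Tasp1, the menin partner gene Jund, and relatives. MLL1 cover had at most 50% left at 1 of 16 in NUP98-HOXA9 (12.8%) and 2 of 15 in NUP98-HOXD13 (30.4%). The counts were 0 of 16 in NUP98-JARID1A (2.51%) and 13 of 14 in NUP98-NSD1 (94.1%). Menin was lost at 12 of 12 in NUP98-HOXA9 (96.2%), and 2 of 16 had at most 50% left in NUP98-HOXD13 (13.5%). H3K4me3 had at most 50% left at 1 of 14 (5.68%). Kdm6a, which encodes the H3K27 demethylase UTX of the MLL3 and MLL4 complexes, was the 1 in NUP98-HOXA9, with 2885 and 520 bp (18%). Its MLL1 length was 777 and 476 bp in NUP98-HOXD13, 4623 and 2882 bp in NUP98-JARID1A and 564 and 0 bp in NUP98-NSD1. Pagr1a and Tasp1, like Kdm6a, were at 50% or less in 3 pairs. For each of these genes NUP98-NSD1 MLL1 and NUP98-HOXA9 menin were among the 3. In those pairs 94.1% and 98.7% of all covered genes were at 50% or less. The share of all genes at 50% or less in 3 pairs is not given here, so the count does not set these genes apart. Pagr1a, which encodes the PA1 subunit of the MLL3 and MLL4 complexes, had 2037 and 790 bp of MLL1 in NUP98-HOXD13, and its MLL1 region in NUP98-NSD1 (337 bp) and menin region in NUP98-HOXA9 (461 bp) were lost. Tasp1, the protease that cleaves MLL1 and MLL2, lost 347 bp of MLL1 in NUP98-NSD1, 715 bp of menin in NUP98-HOXA9 and its 360 bp of H3K4me3, while its MLL1 length in NUP98-HOXA9 was 1564 and 1386 bp. Kmt2e had the most MLL1 bases in DMSO, with 3335 and 2200 bp in NUP98-HOXA9 and 6052 and 3693 bp in NUP98-JARID1A. Setd1b, which came next, had 5806 and 7441 bp in NUP98-JARID1A and 2054 and 865 bp in NUP98-HOXD13. MLL1 cover was shorter in NUP98-HOXD13 and longer in NUP98-JARID1A at 7 of the 10 members and the reverse at Rbbp5, against 63.5% and 1.1% of genes covered in both lines. Of the 7, Kmt2b was shorter in both lines without the flank.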

How the data were processed

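The data are 14 peak lists, 1 per library, with 10 input libraries for which no list was used. The submitters' processing notes name the build mm10 and the tools MACS2, bedtools, SAMtools, STAR (2.7.5a), Picard (2.9.4) and bcl2fastq (2.20.0.422). For their settings, and for the input used with each list, nothing is given in the sources used here. By label, a DMSO input is missing for NUP98-NSD1 and for NUP98-HOXA9 at 96 h. A treated input is missing for NUP98-HOXA9 at 72 h. The DMSO lists of NUP98-NSD1 MLL1 and of NUP98-HOXA9 menin and H3K4me3 thus lack a control matched in line, agent and time. The same holds for the treated NUP98-HOXA9 MLL1 list. The part of these missing controls in the results was not tested. The deposited rows hold coordinates, a score, a ratio (fold enrichment over background), −log10 p, −log10 q and the summit position. The deposited −log10 q of the weakest region lay between 2 and 2.07, so a region absent from a list may be enriched below that limit. The deposited score was not used, and the authors' fold only ranked regions within a list.

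Groups follow the labels for cell line, antibody, agent and time. The 2 libraries of each pair share a date in their titles, while the date of the MLL1 libraries differs from line to line. The peak names inside both NUP98-HOXD13 MLL1 lists match their sample titles in line, antibody, agent, time and index sequence but carry another sample number, and the file names of both NUP98-HOXA9 MLL1 lists carry another date than the titles. The sample of each list was taken as deposited. The treated NUP98-HOXA9 MLL1 library has its 72 h from its characteristics, since its title gives no time. Covered length was computed in Python 3.11.15 (pandas 2.3.3, numpy 2.4.6, matplotlib 3.10.9) and checked on simulated intervals. A gene is reduced at 50% or less of its DMSO length (lost at 0 bp) and extended at 200% or more. Log2 ratios add 200 bp to both lengths. The RefSeq tables give no exons, and gene spans no strand, so no region was placed in an exon, intron or untranslated region. Of the 10 members 7 matched the promoter table. Where a gene has several starts, the start used is the one nearest an MLL1 summit.

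All members are named. Of 16 other pathway genes, the rule named those reduced in at least 2 pairs (12 genes) or the 2 with the most MLL1 bases in DMSO. Values are given for the 3 reduced in at least 3 pairs and for both of the latter. The shares of all genes reduced in as many pairs are not given here. The members and lists were chosen with earlier results of these data known. The division into bases upstream and downstream of the start was added after the data were seen. Alternatives were lists of equal length, −log10 q of at least 5, no flank or 5 kb, 50 bp added in place of 200, another overlap, and dropping regions near another gene's end. The genes with cover most like that of Men1 are not reported here.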

Additional observations from a re-analysis of the deposited data

Results flagged for a closer look

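MLL1 covered length moved in opposite directions in NUP98-HOXD13 and NUP98-JARID1A cells at 8 of the 10 genes and in their sum. With 1 library per condition the difference between the lines was not tested. The MLL1 libraries of the 2 lines also carry different dates in their titles, so line and date cannot be told apart. Values are log2 ratios of VTP50469 to DMSO with 200 bp added to both lengths, and the difference is NUP98-JARID1A minus NUP98-HOXD13. At Kmt2a it was 1.17 (0.82 against −0.35). At Kmt2b it was 0.77 (0.44 against −0.33), and at Kmt2d 0.74 (0.08 against −0.66). Men1 differed by 1.46 (1.24 against −0.22), where the NUP98-JARID1A value compares a start region in DMSO with a region beside Map4k2 after treatment. Psip1 differed by 0.57 (0.43 against −0.15), Ash2l by 1.5 (0.36 against −1.14) and Wdr5 by 1.16 (0.81 against −0.35). Rbbp5 went the other way, by −2.06 (−1.97 against 0.09). For the sum over the 10 genes, taken with no bases added, the difference was 0.75 (0.15 against −0.59). Some directions in NUP98-JARID1A turn with the processing. Without the flank the ratio of treated to DMSO length was 0.855 at Kmt2b and 0.991 for the sum, with lists of equal length it was 0.995 at Kmt2d, and without regions near another gene's end it was 0 at Men1.

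Of 10101 genes with an MLL1 region in both DMSO lists, 63.5% were shorter in NUP98-HOXD13 and longer in NUP98-JARID1A, and 1.1% were the reverse, as Rbbp5 was. The treated list was the shorter of its pair in NUP98-HOXD13 and the longer in NUP98-JARID1A. With lists of equal length the summed ratio of the members was 1.03 in NUP98-JARID1A and 0.663 in NUP98-HOXD13. Over all genes it was then 1.08 and 0.667. With the full lists the members had 1.11 and 0.663, and all genes 1.31 and 0.583. Beyond this setting, the part of list length in these differences was not tested.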

How the results depend on the processing

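No paired analysis was possible because each condition has 1 library, all numbered 1. Of the alternatives to the values per pair, 107 stayed close to the reported value and 23 moved, and of those for single genes 267 stayed close, 18 moved and 1 reversed. The cause of each change was not tested. Limiting both lists of a pair to equal length left only 1 member with a DMSO region in NUP98-NSD1 MLL1 and in NUP98-HOXA9 menin. The reduced members were then 1 of 1 in place of 5 of 5, and 0 of 1 in place of 7 of 8, and 2 of 10 in place of 1 for NUP98-JARID1A. Among all covered genes 86.8%, 81.7% and 11.3% were reduced in these 3 pairs under that setting. The summed ratio for NUP98-NSD1, 0.419 in place of 0.0866, then sets 869 bp of Dpy30 in DMSO against 364 bp of Kmt2a after treatment. For NUP98-HOXA9 menin the ratio of 0.536 in place of 0.0927 and the log2 ratio of −0.66 are those of Kmt2d alone. Without a flank the reduced members numbered 2 of 10 for NUP98-HOXA9 MLL1, 4 of 10 for NUP98-HOXD13 MLL1 and 2 of 10 for NUP98-HOXD13 menin. Among all covered genes 19.1%, 38.6% and 19.2% were reduced under that setting. The summed ratio for NUP98-NSD1 was then 0.0274, and the median for NUP98-HOXA9 menin was −1.10. For NUP98-NSD1 the summed ratio was 0.197 with a 5 kb flank and 0 at −log10 q of at least 5. In that pair 0 of 6 DMSO regions were kept when 50% of a region had to overlap, a count with no share of all regions. With 50 bp added, the medians were −4.20 for NUP98-NSD1 and −3.43 for NUP98-HOXA9 menin. Dropping regions near another gene's end was a choice made after seeing the data. It left 2 of 9 covered members reduced for MLL1 in each of NUP98-HOXA9, NUP98-HOXD13 and NUP98-JARID1A. With all regions kept, 12.8%, 30.4% and 2.51% of all covered genes were reduced there. Dropping these regions also gave a summed ratio of 0 for NUP98-HOXA9 menin, and a Men1 ratio of 0 in NUP98-JARID1A, the one that reversed. With MLL1 DMSO lists limited to 7113 regions, 4, 4 and 5 members had a region in NUP98-HOXA9, NUP98-HOXD13 and NUP98-JARID1A. These counts have no share of all genes to be read against. The median for H3K4me3, −0.07, was 0.02 without a flank and 0.03 with 5 kb. Depth is unknown, so an absent region may lie below the peak threshold.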

Other observations

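Genes with cover most like that of Kmt2a were sought over the 14 lists, as Pearson's correlation of log2(covered bp + 200) across 12068 genes. They were Bzw1 (0.969), Glrx5 (0.95) and Wdr82 (0.945), the last a subunit gene of the SET1 complexes, and 81 genes were above 0.9. The 14 lists form 7 pairs and differ in length. The part of list length in these values was not tested, nor was a shared control of these genes.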
